A study of Mus musculus with 4 samples.

Results

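The G2/M genes described here are 50 genes whose products act in the G2 and M phases of the cell cycle, taken from a fixed list of names and read from the 32285 genes of each library. All 50 were found by symbol in the feature lists. The cells came from C57BL/6J mouse embryos at embryonic day 11.5, from the aorta-gonad-mesonephros region (AGM), where blood stem cells first arise. All cells had been sorted for CD31, the surface protein encoded by Pecam1, and then by TMRM signal, since mitochondria take up this dye according to their membrane potential. The low gate (MMPlow) and the high gate (MMPhigh) hold 2 single-cell libraries each. The series set out to find the transcriptional side of how stem cell function separates by mitochondrial activity. The labels do not say whether the libraries of a gate came from separate litters or how many embryos were pooled, so p-values measure only the spread between these libraries, which may be technical. Libraries are called MMPlow 1, MMPlow 2, MMPhigh 1 and MMPhigh 2, and sets of 4 values follow this order.

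In dividing cells the kinase Cdk1 and its B-type cyclins drive entry into mitosis, and the anaphase-promoting complex (APC/C), with its activator Cdc20 and its ubiquitin-conjugating enzyme Ube2c, ends it by marking cyclins and securin for destruction. Aurora kinases, the chromosomal passenger complex, centromere proteins and kinesins build the spindle and attach chromosomes to it. Transcripts of these genes build up through G2 and are low or absent in cells that have left the cycle, such as neurons. Many of their promoters are held off in G1 by the DREAM complex at CHR elements and are activated with NF-Y, which binds CCAAT boxes, and with B-Myb and FoxM1.

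The promoters of 6 members are shown because these genes were among those called higher in MMPhigh in the largest number of cell classes (7 of 10 classes for Ube2c, 5 for Cdc20 and 4 each for Ccnb2, Cdk1, Cenpa and Cenpf). Of 7 members higher in 4 classes, the first 4 by name were taken, which left out Cks1b, Cks2 and Tubb4b, and of these Cks2 had no TTTGAA in its window. RefSeq's table for GRCm38.p6 held a promoter for 44 of the 50 members and none for Dlgap5, Tpx2, Smc4, Cdc25c, Cdca2 and Aurkb. Each line gives the 120 bases before the annotated start, 5′ to 3′ on the gene's own strand, with matches to TTTGAA (the CHR core) and CCAAT on either strand in capitals. The regions are chr2:164769809-164769928 on the plus strand (Ube2c), chr4:118437344-118437463 on the minus strand (Cdc20), chr9:70421555-70421674 on the minus strand (Ccnb2), chr10:69352913-69353032 on the minus strand (Cdk1), chr5:30666766-30666885 on the plus strand (Cenpa) and chr1:189688087-189688206 on the minus strand (Cenpf).
Ube2c: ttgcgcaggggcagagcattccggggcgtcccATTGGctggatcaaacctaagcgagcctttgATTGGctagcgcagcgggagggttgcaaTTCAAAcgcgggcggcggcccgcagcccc
Cdc20: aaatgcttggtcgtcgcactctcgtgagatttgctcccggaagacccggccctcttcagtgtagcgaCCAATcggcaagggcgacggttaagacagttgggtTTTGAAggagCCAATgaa
Ccnb2: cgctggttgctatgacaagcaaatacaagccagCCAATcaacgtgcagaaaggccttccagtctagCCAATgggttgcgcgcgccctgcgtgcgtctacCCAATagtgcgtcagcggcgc
Cdk1: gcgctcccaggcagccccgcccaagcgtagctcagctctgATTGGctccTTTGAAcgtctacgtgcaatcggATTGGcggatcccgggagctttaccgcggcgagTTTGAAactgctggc
Cenpa: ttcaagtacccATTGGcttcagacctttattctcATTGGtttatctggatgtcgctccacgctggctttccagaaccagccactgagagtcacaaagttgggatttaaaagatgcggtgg
Cenpf: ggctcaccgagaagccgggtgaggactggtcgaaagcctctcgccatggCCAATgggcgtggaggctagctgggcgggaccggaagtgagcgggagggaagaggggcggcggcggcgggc

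In the 300 bases from 250 before to 50 after the start, TTTGAA on either strand was found in 31 of 44 members, 70.5%, against 20.2% of 27025 genes with a promoter in the table. A CCAAT on either strand was found in 79.5% of the members and in 41.1% of all genes. Both motifs together were found in 26 of 44 members, 59.1%, and in 7.97% of all genes. A second list of 50 mitotic genes, of which 41 had a promoter, held TTTGAA in 61.0%, while the S phase list held it in 19.4% of 31 promoters but CCAAT in 71.0%. Of the 6 genes shown, Ube2c, Cdc20 and Cdk1 carried TTTGAA within the printed stretch, at -29, -18, and -71 and -15 from the start, and Ccnb2, Cenpa and Cenpf carried it just after the start, at 5, 17 and 3 (Ccnb2 also at -167). These matches are letters only, and binding was not measured.

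After filtering for at least 2000 UMIs (unique molecular identifiers, one per captured transcript) and 1000 genes per cell, 15718, 18444, 4403 and 3392 cells were retained. Their median depth was 3082, 3641, 3685 and 23553 UMIs, so MMPhigh 2 stands apart. Endothelial-like cells made up 47.3% and 45.6% of MMPlow and 0.273% and 0.383% of MMPhigh cells, although the sort was for CD31 in both gates. Pecam1 was at 275, 262, 24.9 and 22.1 CPM (UMIs of a gene scaled to a library total of 1e6). Clusters without a name held 17.3%, 21.6%, 66.7% and 21.2% of cells. Barcode sequences shared between 2 libraries numbered 7 to 82 among retained cells. Endothelial transcripts were found throughout the MMPlow libraries: the 12 endothelial markers summed to between 554 and 1417 CPM in the MMPlow sums of the other named classes and to between 16.4 and 408 CPM in MMPhigh. Their part in the differences below was not tested.

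Across cell classes, the summed share of the 50 genes ran from neuron-like cells at the bottom to erythroid-like and glial or neural crest-like cells at the top. In MMPlow the mean share per cell was highest in erythroid-like cells, at 0.766% ± 0.0472 of UMIs (SD, n = 2), and in glial or neural crest-like cells, at 0.746% ± 0.0487. It was lowest in neuron-like cells, at 0.352% ± 0.0138. These shares are given as values with no test. Granulocyte or mast-like, megakaryocyte-like and mesenchymal-like cells lay at 0.674% ± 0.0038, 0.667% ± 0.0479 and 0.637% ± 0.00992. Muscle-like, germ cell-like, endothelial-like and macrophage-like cells lay at 0.586% ± 0.0247, 0.572% ± 0.0151, 0.572% ± 0.000366 and 0.555% ± 0.0151. Neighbours in this order overlapped between libraries for erythroid-like and glial or neural crest-like cells, for granulocyte or mast-like, megakaryocyte-like and mesenchymal-like cells, and for muscle-like, germ cell-like and endothelial-like cells. In MMPhigh the order ran from 0.198% ± 0.0102 in neuron-like to 0.919% ± 0.0913 in glial or neural crest-like cells, with erythroid-like cells at 0.867% ± 0.0555, granulocyte or mast-like cells at 0.864% ± 0.0488 and germ cell-like cells at 0.808% ± 0.0715.

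**Figure D1:**
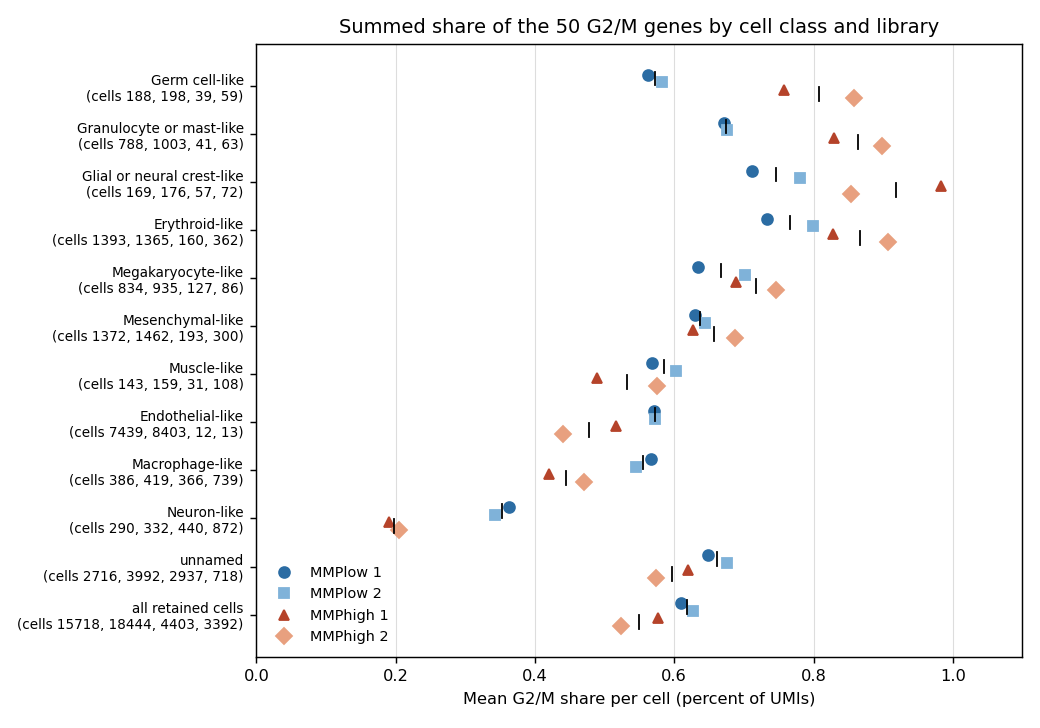
Mean share of the 50 G2/M genes per cell (horizontal axis, percent of UMIs) in each cell class, 1 point per library and a vertical bar at the mean of each gate. The neuron-like points of MMPhigh sit at 0.191 and 0.205, below every other class, and the germ cell-like points of MMPhigh at 0.758 and 0.859 lie to the right of MMPlow at 0.562 and 0.583.

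Most members followed this order. Neuron-like cells had the lowest level of 46 of the 50 genes, and the erythroid-like over neuron-like ratio had a median of 2.66 in MMPlow and 6.03 in MMPhigh. This ratio was larger in MMPhigh for 46 members. Over 40 points, 1 per class and library, each gene's level had a median Pearson correlation of 0.869 with the sum of the other 49, given as a description since the points share libraries. It was above 0.8 for 33 members. The ubiquitin ligase G2e3 (-0.19), the microtubule polymerase Ckap5 (0.20), the heterochromatin protein gene Cbx5 (0.31) and Psrc1 (0.48) followed it least, and G2e3 was highest in neuron-like cells. Hmgb2, a DNA-bending chromatin protein of wide use, supplied 15.5%, 15.8%, 16.4% and 17.5% of all member UMIs, the largest part of any member. UMIs were counted at the 3′ ends of transcripts and not divided by length, so levels of different genes are not ranked further.

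Within several classes the share differed between clusters. Among endothelial-like clusters of MMPlow, the one led by Vegfc, Gja5 and Gja4, genes of arterial endothelium, had shares of 0.410% and 0.395%, and the one led by Ramp2, Gng11 and Cldn5 had 0.700% and 0.746%. Mesenchymal-like cells led by Acta2 and Tagln, contractile genes of smooth muscle, had 0.429%, 0.429%, 0.230% and 0.342%, against 0.675%, 0.689%, 0.655% and 0.704% in the cluster led by Gpc3 and Col25a1. Macrophage-like cells led by Mrc1 had 0.557%, 0.551%, 0.522% and 0.594%, and those led by Ctss and Mpeg1 had 0.512%, 0.394%, 0.313% and 0.321%. The Ctss cluster held 23 and 50 cells in MMPlow and 178 and 336 in MMPhigh, and the Mrc1 cluster 230, 311, 188 and 403. Another macrophage-like cluster, led by Mndal and F13a1, held 133 and 58 cells of MMPlow and none of MMPhigh, so the macrophage-like class was mixed differently in the gates. A cluster of immature blood cells led by Tespa1, Flt3, Angpt1 and Hlf, found at a finer clustering and not named as a class, held 396, 468, 27 and 42 cells with shares of 0.692%, 0.700%, 0.863% and 0.908%.

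**Figure D2:**
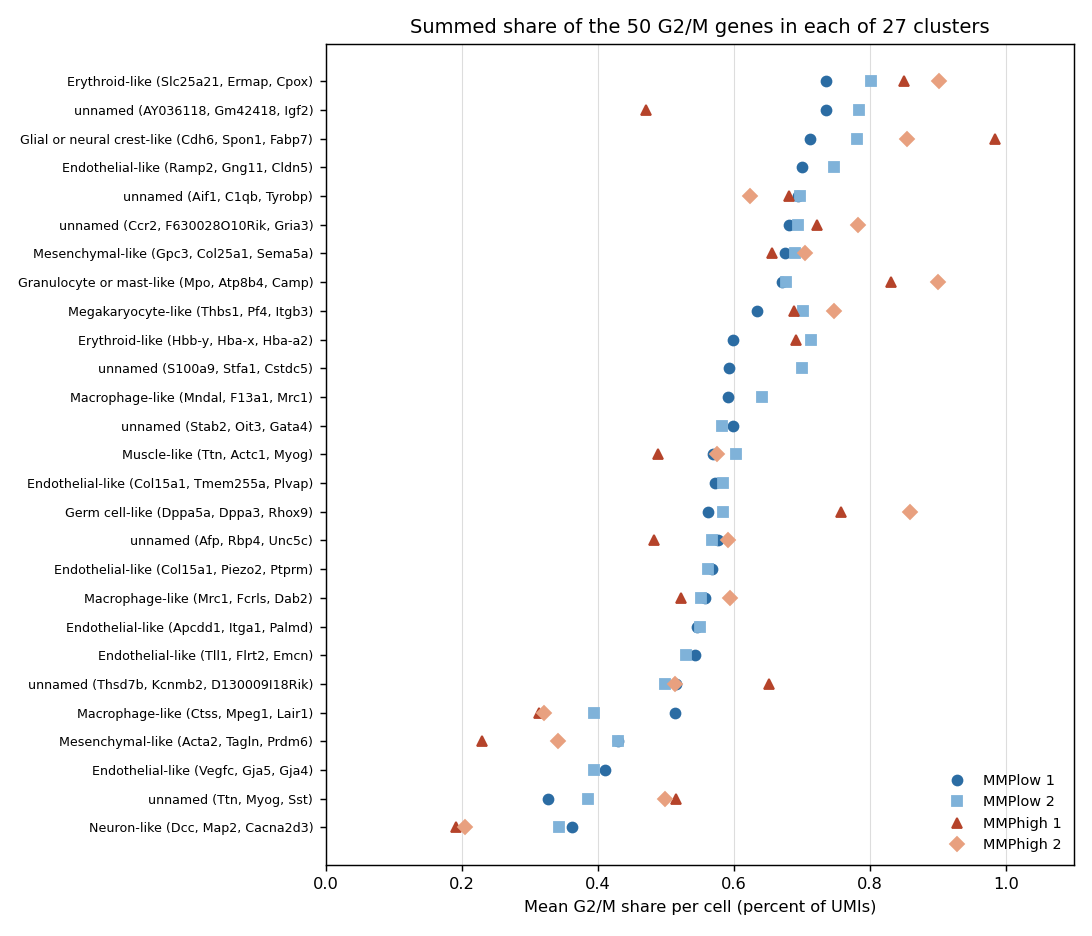
Mean share of the 50 G2/M genes per cell (percent of UMIs) in each of 27 clusters, 1 point per library with at least 10 cells, ordered by the MMPlow mean and labelled with the class and the first 3 leading genes. The neuron-like cluster, the unnamed cluster led by Ttn, Myog and Sst, and the Gja5 endothelial, contractile mesenchymal and Ctss macrophage clusters lie at the bottom, and of these the Ttn, Myog and Sst cluster is higher in both MMPhigh libraries.

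Depth moved with the share in some classes and not in all. In the endothelial-like cells of MMPlow 1 the share was 0.521% at 2000 to 3000 UMIs per cell, 0.583% at 3000 to 5000, 0.656% at 5000 to 10000 and 0.729% at 10000 to 20000. Mesenchymal-like cells of MMPlow 2 went from 0.554% to 0.914% over the same bins. By contrast, neuron-like cells with at least 5000 UMIs had shares of 0.348%, 0.327%, 0.165% and 0.209%. All retained cells of that class had 0.362%, 0.342%, 0.191% and 0.205%. Cells of MMPhigh were deeper in every named class but 1 library of the megakaryocyte-like class, where MMPhigh 1 had a median below that of MMPlow 2. Where both gates had at least 20 erythroid-like cells in a bin, MMPhigh was not higher. At 5000 to 10000 UMIs the erythroid-like share was 0.761% and 0.837% in MMPlow and 0.729% in MMPhigh 1, and at 20000 UMIs or more it was 0.973% in MMPlow 2, 0.904% in MMPhigh 1 and 0.911% in MMPhigh 2. The latter bin has no upper limit, so depth can still differ within it. Megakaryocyte-like cells of MMPhigh 1 had 0.654% at 2000 to 3000 UMIs, against 0.617% and 0.616%, and 0.593% at 3000 to 5000, against 0.657% and 0.693%. Granulocyte or mast-like, germ cell-like and glial or neural crest-like cells had no bin with 20 cells in both gates, so the gate and the depth cannot be told apart for their shares. With at least 5000 UMIs per cell MMPhigh minus MMPlow was 0.176, 0.252 and 0.0954 percentage points in these classes. Over all their retained cells it was 0.191, 0.236 and 0.173. Such a floor does not match depth between gates. Shares were also computed without 6 members with wide use outside mitosis (Hmgb2, Tmpo, Lbr, Anp32e, Cbx5 and Tubb4b), which lowers the share itself. MMPhigh minus MMPlow then went from 0.101 to 0.0225 percentage points in erythroid-like cells, from 0.236 to 0.155 in germ cell-like cells, from 0.191 to 0.105 in granulocyte or mast-like cells and to 0.00138 in megakaryocyte-like cells. As a percentage of the MMPlow share, the difference went from 13.2 to 4.25 in erythroid-like, from 28.3 to 22.8 in granulocyte or mast-like and from 7.52 to 0.298 in megakaryocyte-like cells, but was 41.2 and 42.1 in germ cell-like and -43.8 and -52.2 in neuron-like cells. Neuron-like cells of MMPhigh were lower in each shared bin: at 5000 to 10000 UMIs they had 0.146% and 0.183%, against 0.355% and 0.324% in MMPlow. Mesenchymal-like cells at 10000 to 20000 UMIs had 0.914% in MMPlow 2 and 0.555% and 0.597% in MMPhigh.

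To compare single cells, each was thinned at random to 2000 UMIs. The share of cells with at least 10 G2/M UMIs among these was 59.9%, 61.3%, 56.1% and 42.9%, with exact 95% binomial intervals of 59.1 to 60.6, 60.6 to 62.0, 54.6 to 57.5 and 41.3 to 44.6. Intervals here cover counting error only. Before thinning the shares at this level were 84.4%, 88.5%, 84.0% and 94.4%. After thinning, at least 20 G2/M UMIs were found in 13.3%, 15%, 13.9% and 18.1% of cells. The gates overlapped at this higher level, and the higher MMPhigh mean rests on MMPhigh 2. Cells with no G2/M UMI among the 2000 UMIs drawn made up 0.0636% and 0.0813% of MMPlow and 1.59% and 3.54% of MMPhigh. MMPhigh 2 therefore held more cells at both ends of the distribution. Between 8 and 11 UMIs, around the level of 10, lay 27.7%, 26.7%, 20.7% and 12.3% of cells, so the class of cells above it is a range and not a type.

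In erythroid-like cells the cells with 20 to 39 G2/M UMIs made up 15.9% and 23.5% of MMPlow and 32.5% and 37.8% of MMPhigh. Granulocyte or mast-like cells had 15.1% and 15.9% against 34.1% and 33.3%. Neuron-like cells went the other way, with 24.5% and 30.7% of MMPlow cells and 67.0% and 69.8% of MMPhigh cells at 1 to 4 UMIs. Neuron-like cells at or above 10 UMIs made up 19% (14.6 to 24.0) and 15.1% (11.4 to 19.4) of MMPlow and 6.82% (4.65 to 9.59) and 6.77% (5.19 to 8.64) of MMPhigh, exact 95% intervals, at median depths of 3487 and 4218, and 10470 and 18609 UMIs.

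**Figure D3:**
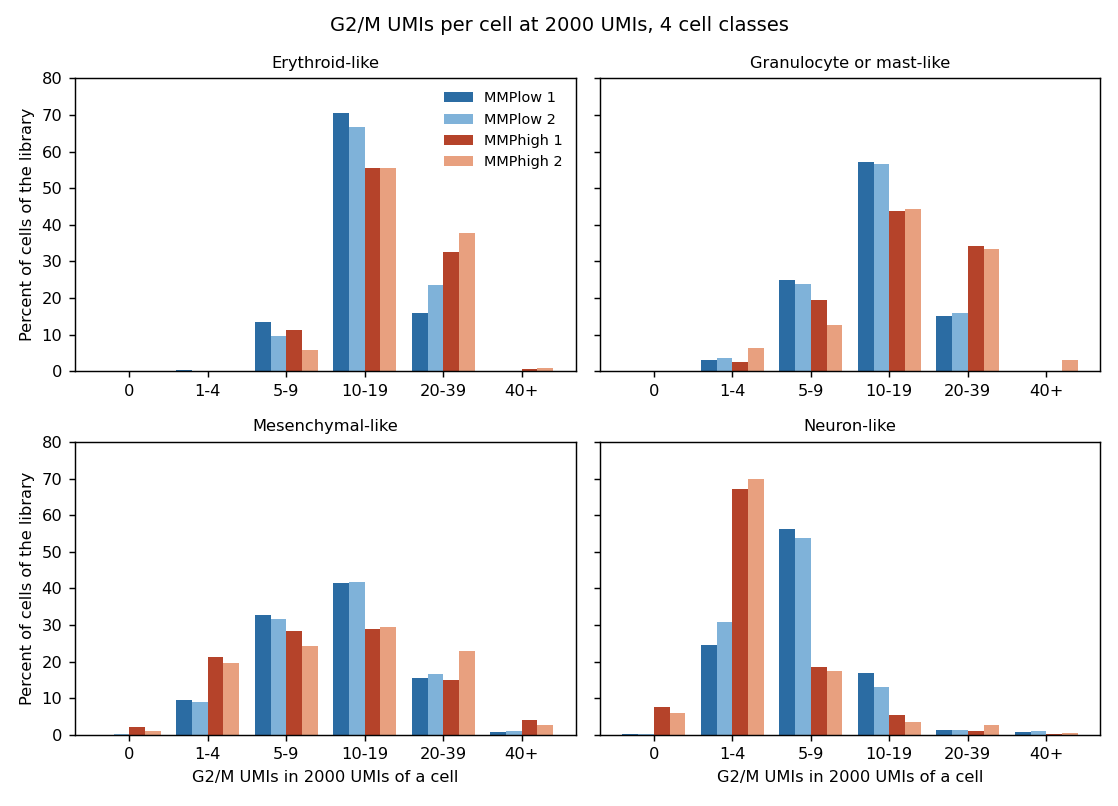
Percent of cells of each library (vertical axis) by the number of G2/M UMIs found among 2000 UMIs of a cell (horizontal axis), in 4 cell classes. Bars of MMPhigh exceed those of MMPlow at 20-39 UMIs in erythroid-like and granulocyte or mast-like cells, and at 1-4 UMIs in neuron-like cells.

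Summed over all retained cells of a library, 23 of the 50 members differed between gates, 3 higher and 20 lower in MMPhigh (edgeR quasi-likelihood test, Benjamini-Hochberg adjusted over all genes, threshold 0.05). Of 20408 genes tested, 53.8% were called, 27.3% higher and 26.5% lower, so the share of members called was near the background. The median fold of the members was -0.17 and that of all genes 0.01 on the log2 scale. Ube2c was at 119, 120, 220 and 176 CPM, and no MMPhigh library overlapped MMPlow (log2 fold 0.77 ± 0.12 SE, edgeR adjusted p = 0.00127). Tubb4b, a tubulin found well beyond mitosis, was at 249, 283, 332 and 359 CPM (0.41 ± 0.11), and Anp32e, a histone chaperone, at 192, 213, 258 and 235 CPM (0.32 ± 0.11). The most lowered were Lbr, an inner nuclear membrane receptor, at 134, 126, 74.6 and 69.8 CPM (log2 fold -0.81 ± 0.09, edgeR adjusted p = 0.000141), the checkpoint kinase Ttk, at 44.4, 40.5, 24.3 and 24.3 CPM (-0.77), the centromere chaperone Hjurp, at 109, 106, 62.5 and 61.6 CPM (-0.76), the cytokinesis scaffold Anln, at 59.8, 58.8, 34.6 and 39 CPM (-0.65), and Gas2l3, at 19.6, 21.7, 14.4 and 13.7 CPM (-0.53). In all 5 the gates did not overlap. Here and below, such statements only describe genes picked because they were called in these same libraries. The share of all genes without overlap was not computed. Top2a, the topoisomerase that untangles chromosomes, was at 440, 386, 304 and 316 CPM (-0.38 ± 0.11, edgeR adjusted p = 0.0163), while Mki67 was at 313, 350, 284 and 349 CPM and overlapped between gates. Cdk1, Ccnb2, Cenpa, Cenpf, Hmmr, Hmgb2, Birc5, Aurka, Aurkb, Cks1b, Cks2 and Cdc20 did not pass the threshold. Without MMPlow 1 or MMPlow 2 the number called was 9 or 10, and with a looser filter on cells it was 12.

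In these sums fewer cells of a class and less RNA per cell cannot be told apart, and the cell classes of the libraries differ, so the same test was run with equal numbers of cells of 9 classes from every library, 1263 cells in each. The mean share was then 0.577%, 0.574%, 0.522% and 0.568%, and 4 members were called, 3 higher and 1 lower, against 10.8% of 16593 genes, 4.06% higher and 6.75% lower. The median fold of the members was 0.06, beside 0.01 over all genes. Raw UMIs were summed, so the classes were equal in cells but not in UMIs, and deeper classes weighed more. Over all retained cells, erythroid-like and neuron-like median depths were 4305 and 4218 UMIs in MMPlow 2. In MMPhigh 2 they were 55411 and 18609, so this test does not equalise the class mix by UMIs. Ube2c (0.74 ± 0.10), Tubb4b (0.71 ± 0.14) and Cdc20 (0.58 ± 0.12) were higher and Lbr (-0.63 ± 0.11) lower, with edgeR adjusted p-values of 0.00409, 0.0187, 0.0208 and 0.0100. Without MMPlow 1 the number called was 1, and with called doublets kept it was 10.

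Tested within each class, members called higher in MMPhigh were most numerous in 3 blood lineages and in germ cell-like cells. The granulocyte or mast-like class held 788, 1003, 41 and 63 cells at median depths of 2776, 3330, 5940 and 27313 UMIs. The gate and the depth per cell therefore cannot be told apart in its sums either. It had 19 of 50 members higher and 0 lower, against 24.3% of 11235 genes called, 12.5% higher and 11.8% lower. The median fold of the members was 0.29 and that of all genes -0.06. The class was mixed differently by gate: at a finer clustering, 48.9% and 52.1% of its MMPlow cells and 17.1% and 33.3% of its MMPhigh cells lay in a cluster led by Mpo and Atp8b4, and 48.6%, 45.7%, 65.9% and 66.7% lay in the cluster led by Tespa1, Flt3 and Angpt1. Ube2c was at 111, 95.5, 485 and 323 CPM (log2 fold 2.17 ± 0.19, edgeR adjusted p = 1.28e-05), so both MMPhigh libraries lay far above MMPlow. Cdc20 was at 60.3, 53.5, 144 and 125 CPM (1.45 ± 0.17, edgeR adjusted p = 0.000108). Tubb4b was at 216, 241, 450 and 520 CPM (1.32 ± 0.17). Psrc1, a spindle protein, rested on few counts, with 19, 24, 6 and 22 UMIs (1.24 ± 0.42, edgeR adjusted p = 0.0436). Cenpa, the centromeric histone, was at 111, 129, 267 and 221 CPM (1.22 ± 0.17), and Ccnb2, a cyclin partner of Cdk1, at 71.3, 67.2, 134 and 139 CPM (1.22 ± 0.17). Cdk1 itself was at 76.6, 79.6, 166 and 146 CPM (1.21 ± 0.17), and its adaptors Cks1b and Cks2 had folds of 1.14 ± 0.16 and 1.12 ± 0.16. None of these 9 genes overlapped between gates, which describes genes picked because they were called in these same libraries. The chromosomal passenger genes Birc5, Aurkb and Cdca8 were all higher (0.90 ± 0.17, 0.91 ± 0.20 and 0.75 ± 0.16), as were Hmgb2 (0.92 ± 0.17), Cenpf (0.87 ± 0.18) and Hmmr (0.60 ± 0.18). By contrast Top2a was at 576, 494, 454 and 432 CPM (-0.04 ± 0.17) and Mki67 at 344, 408, 421 and 367 CPM (0.29 ± 0.17), and neither passed. With at least 5000 UMIs per cell 5 members were called, and with scaling by library size alone the split was 17 higher and 2 lower (G2e3 and Hjurp).

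Erythroid-like cells had 20 members higher and 1 lower, against 36.2% of 12803 genes called, 17.1% higher and 19.1% lower. The median fold was 0.35 over the members and -0.02 over all genes. This class was also mixed differently by gate. At the finer clustering 77.5% and 65.8% of its MMPlow cells and 32.5% and 20.2% of its MMPhigh cells lay in a cluster led by Muc13 and named haematopoietic progenitor-like, with shares of 0.719%, 0.779%, 0.759% and 0.866%, whereas 16.3%, 27.4%, 51.2% and 75.4% lay in an erythroid-like cluster led by Slc25a21, with 0.820%, 0.854%, 0.902% and 0.910%. The count of members called was 9 with that clustering. Ube2c was at 134, 146, 314 and 271 CPM (log2 fold 1.37 ± 0.17, edgeR adjusted p = 9.62e-05), Tubb4b at 345, 447, 717 and 792 CPM (1.24 ± 0.22) and Cdc20 at 70.7, 72.1, 123 and 130 CPM (1.14 ± 0.14). Cdk1 was at 79.1, 84.9, 131 and 125 CPM (0.95 ± 0.14) and Cks2 at 274, 395, 491 and 473 CPM (0.83 ± 0.22). Each of these 5 was higher in both MMPhigh libraries than in either MMPlow library. Aurkb (0.82 ± 0.14), Ccnb2 (0.79 ± 0.13), Cks1b (0.76 ± 0.18), Hmgb2 (0.71 ± 0.23), Birc5 (0.61 ± 0.17) and Hmmr (0.52 ± 0.17) were also called. Cenpa was called at 0.47 ± 0.17 although its CPM of 140, 182, 185 and 177 overlapped. The lowered member was Lbr, at 251, 204, 135 and 111 CPM (-0.57 ± 0.16, edgeR adjusted p = 0.0133). The erythroid-like count depends on the scaling: TMM placed the median of all genes at -0.02, library size alone at -0.33, and under the latter 9 members were higher (Aurkb, Ccnb2, Cdc20, Cdca3, Cdk1, Cks1b, Cks2, Tubb4b and Ube2c) and 8 lower. With at least 5000 UMIs per cell 9 members were called, 8 higher and 1 lower, and without MMPhigh 1 or MMPhigh 2 the count was 10 or 9.

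Megakaryocyte-like cells had 14 members higher and 0 lower, against 10.2% of 11468 genes called, 3.79% higher and 6.45% lower. The median fold was 0.35 over the members and 0.00 over all genes. At the finer clustering 57.5% of the MMPhigh 1 cells lay in a cluster led by Ppbp and Pf4 that held 2.40%, 1.93% and 9.30% of the class in MMPlow 1, MMPlow 2 and MMPhigh 2, and most other cells lay in a cluster led by Thbs1. The list was led by Ube2c at 113, 140, 379 and 299 CPM (1.53 ± 0.18, edgeR adjusted p = 1.28e-05), Cdc20 at 63.0, 74.9, 126 and 131 CPM (1.03 ± 0.17), Cdk1 at 80.3, 89.2, 159 and 148 CPM (0.98 ± 0.16) and Ccnb2 at 66.3, 91.1, 112 and 147 CPM (0.86 ± 0.20). No MMPhigh value of these 4 genes fell among the MMPlow values. The count went to 8 at the finer clustering, 7 higher and 1 lower, to 2 with at least 5000 UMIs per cell and to 1 without MMPlow 1. In the Flt3, Angpt1 and Hlf cluster of immature blood cells, tested as a class after the data had been seen and made up mostly of cells already tested as granulocyte or mast-like (96.7%, 97.9%, 100% and 100% of its cells), 20 members were higher and 2 lower, against 27.6% of 9971 genes called, 14.3% higher and 13.3% lower. Ube2c had a fold of 2.45 there, Psrc1 1.66, Cdc20 1.60, Cenpa 1.23 and Tubb4b 1.21, and the lower members were G2e3 (-0.71) and Hjurp (-0.60). Scaling by library size changed this split to 16 higher and 6 lower. No member was lower with DESeq2 (14 higher), with no filter on low counts (19 higher), or without MMPlow 1, MMPlow 2 or MMPhigh 2 (15, 16 and 16 higher).

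Germ cell-like cells, with 188, 198, 39 and 59 cells, had 15 of 49 tested members higher and 0 lower, against 26.5% of 9937 genes called, 11.6% higher and 14.9% lower. The median fold was 0.52 over the members and 0.00 over all genes. Gtse1, a G2 regulator, rested on 4, 7, 18 and 68 UMIs (1.93 ± 0.47, edgeR adjusted p = 0.0128). Ube2c was at 76.9, 90.2, 222 and 330 CPM (1.82 ± 0.25, edgeR adjusted p = 0.000881), the centrosomal kinase Nek2 at 14.6, 16.4, 33.4 and 52.0 CPM (1.59 ± 0.37), the kinesin Kif2c at 22.5, 23.4, 43.8 and 67.4 CPM (1.40 ± 0.33) and Cdca2 at 35.8, 31.6, 68.0 and 92.6 CPM (1.36 ± 0.28). MMPhigh lay above MMPlow for each of them. The spindle kinase Aurka (1.31) and the checkpoint kinase Bub1 (0.88) were called higher in this class, and in none of the other 9 classes did either pass in that direction. Without MMPlow 1 the count was 3, without MMPlow 2 it was 6, and without MMPhigh 1 it was 33. DESeq2 called 7. Glial or neural crest-like cells had 2 members higher, against 6.82% of 9648 genes called, 1.86% higher and 4.96% lower: Ube2c at 141, 173, 351 and 285 CPM (1.02 ± 0.18, edgeR adjusted p = 0.00233) and Cdc20 at 69.4, 80.6, 137 and 118 CPM (0.77 ± 0.19). That count was 0 with at least 5000 UMIs per cell or without MMPlow 1, and 8 without MMPhigh 2.

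**Figure D4:**
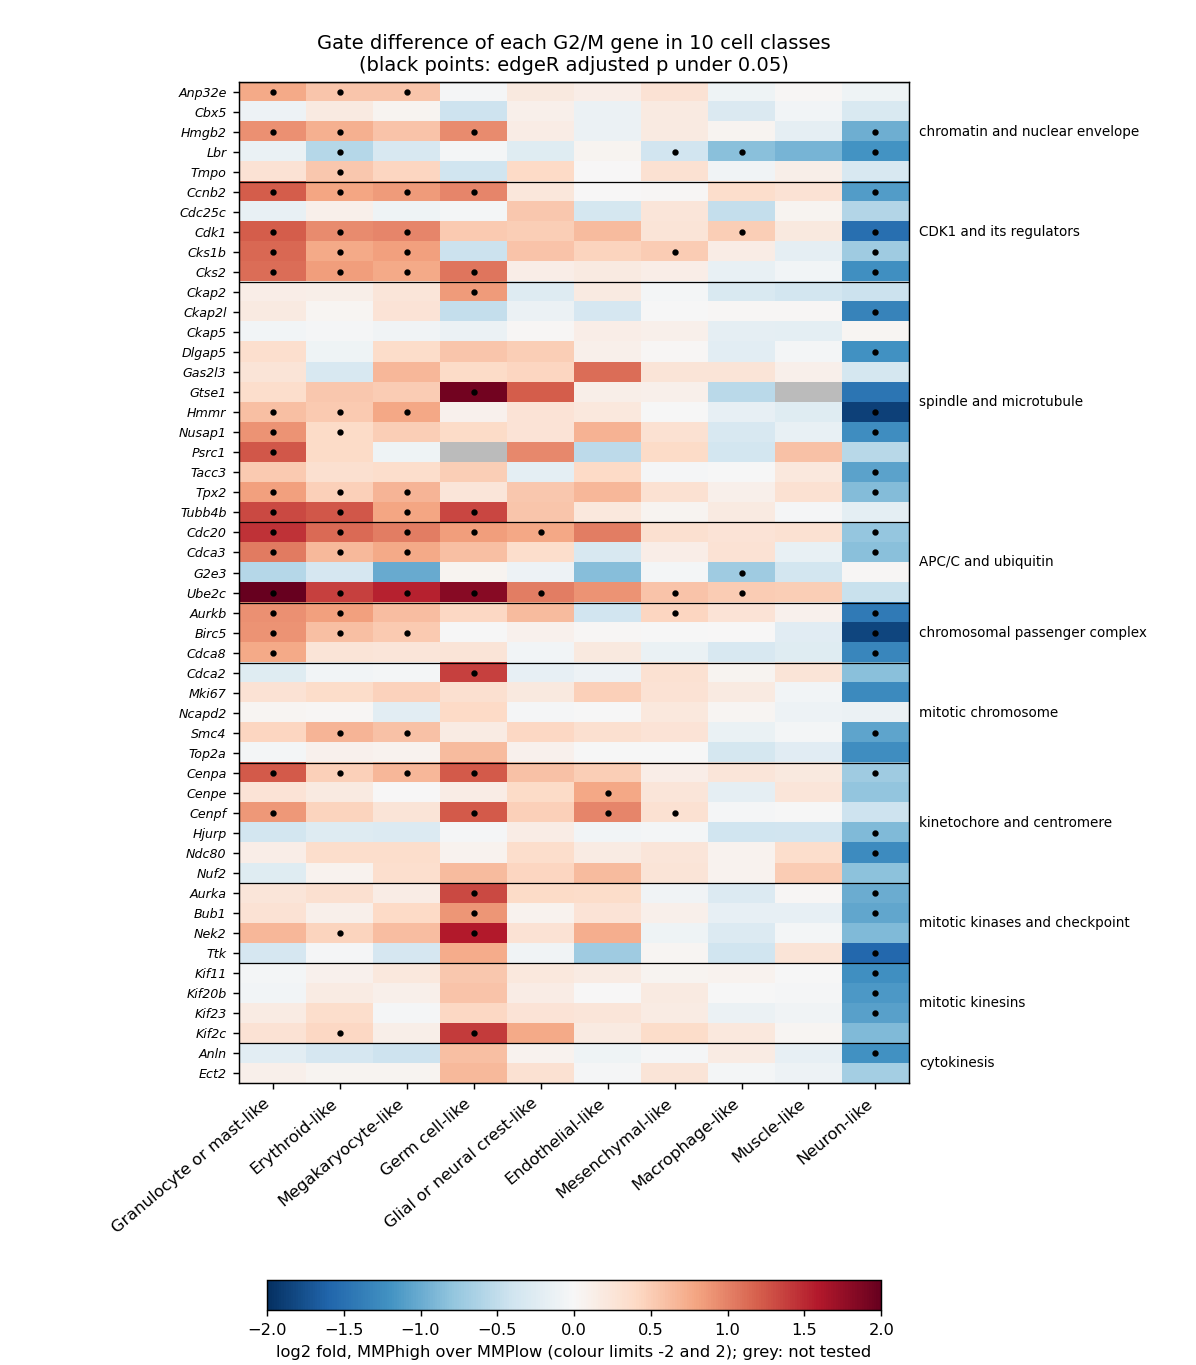
Log2 fold, MMPhigh over MMPlow, of each of the 50 members (rows, grouped by role) in 10 cell classes (columns), with black points where the edgeR adjusted p is under 0.05 and colours held at -2 and 2. Ube2c is called higher in 7 classes, the 4 left columns hold most other called higher genes, and the neuron-like column holds 28 lower genes.

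In neuron-like cells the calls were all lower. Of 50 members 28 were lower in MMPhigh and 0 higher, against 20.8% of 13150 genes called, 8.11% higher and 12.6% lower, and 48 members had a negative fold, with a median of -0.93 beside -0.01 over all genes. Hmmr, a hyaluronan receptor that acts on the spindle, was at 58.6, 48.4, 11.7 and 15.8 CPM (log2 fold -1.87 ± 0.20, edgeR adjusted p = 0.000177). Birc5, the survivin subunit of the passenger complex, was at 109, 80.9, 22.1 and 28.4 CPM (-1.83 ± 0.18, edgeR adjusted p = 0.000129). Ttk was at 19, 10.8, 4.17 and 5.18 CPM (-1.57 ± 0.36), Cdk1 at 29.3, 39.5, 9.95 and 13.3 CPM (-1.52 ± 0.24) and Aurkb at 16.4, 17.8, 4.49 and 7.45 CPM (-1.42 ± 0.33). All 5 were lower in both MMPhigh libraries than in either MMPlow library. Cks2 (-1.22 ± 0.14), Ccnb2 (-1.12 ± 0.25), Aurka (-0.99 ± 0.24), Hmgb2 (-0.97 ± 0.17), Cdc20 (-0.78 ± 0.21), Cenpa (-0.72 ± 0.17) and Cks1b (-0.71 ± 0.12) were called lower too. Mki67 was at 116, 110, 27.3 and 59.8 CPM (-1.28 ± 0.46) and Top2a at 174, 148, 45.7 and 84.2 CPM (-1.24 ± 0.35), and neither passed (edgeR adjusted p = 0.156 and 0.0821). Ube2c at 84.5, 63.1, 46.1 and 57.8 CPM and Tubb4b at 164, 160, 124 and 151 CPM did not pass either.

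The neuron-like result depends on which cells carry the name. At a finer clustering, or with all variable genes used for clustering, 1 member was called, Cenpf, and it was higher (0.97 and 0.94). The finer neuron-like cluster still had a lower share in both MMPhigh libraries, at 0.305%, 0.282%, 0.213% and 0.233%, as had an unnamed cluster led by Cacna2d3 that held 40.3%, 41.3%, 28.2% and 31.7% of the reported neuron-like cells, at 0.333%, 0.318%, 0.144% and 0.166%. A further 24.1%, 20.2%, 13.6% and 11.2% of these cells lay in a finer cluster named glial or neural crest-like. In the reported clustering, an unnamed cluster led by Ttn, Myog and Sst was closest to the neuron markers, with 11 of them raised. Muscle markers, among them Myog, came next, with a mean log2 fold of 1.15 against 1.69 for neuron markers, so it may mix muscle cells with neurons. This cluster held 38, 36, 911 and 270 cells and had higher shares in MMPhigh, at 0.326%, 0.386%, 0.515% and 0.498%. With all variable genes the named cluster held 232, 252, 942 and 965 cells and the shares were 0.306%, 0.289%, 0.356% and 0.216%, so MMPhigh 1 was no longer below MMPlow. Without MMPlow 1 or MMPlow 2, 8 or 9 members were called, and with at least 5000 UMIs per cell 11 were. Endothelial markers summed to 710, 631, 16.4 and 18.2 CPM in the neuron-like cells, with Cdh5 at 0 in MMPhigh 1. Erythroid markers summed to 1583, 135, 45.4 and 27.2 CPM in these cells, and granulocyte or mast markers to 254, 241, 20.4 and 14.8 CPM. The part of these transcripts in this difference was not tested.

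In the remaining classes few members passed. Macrophage-like cells had 2 higher and 2 lower, against 20.4% of 12021 genes called, 8.52% higher and 11.9% lower: Ube2c at 102, 116, 149 and 135 CPM (0.51 ± 0.14) and Cdk1 at 69.4, 72.7, 81.7 and 99.3 CPM (0.49 ± 0.15) were higher, and Lbr at 159, 133, 76 and 71.9 CPM (-0.84 ± 0.13) and the ubiquitin ligase G2e3 at 65.3, 41.0, 29.6 and 28.6 CPM (-0.71 ± 0.18) were lower. Scaling by library size left 0 higher and 4 lower. Clustering again gave a count of 18 at the finer resolution, 6 higher and 12 lower, and 22 with all variable genes, 10 higher and 12 lower, and without MMPlow 2 it was 9. Without MMPlow 1 it was 2 and without MMPhigh 2 it was 1. Mesenchymal-like cells had 4 higher and 1 lower, against 20.6% of 14185 genes called, 7.9% higher and 12.7% lower. The class was mixed differently by gate: at the finer clustering the contractile Acta2 and Tagln cluster, with its low share, held 20.1% and 18.3% of the MMPlow and 6.74% and 4.67% of the MMPhigh cells, and a cluster led by Tmem132c and Prrx1 held 32.9%, 33.3%, 48.7% and 53.3%. With that clustering 8 members were called, all higher. Ube2c was at 141, 123, 197 and 182 CPM (0.57 ± 0.11), Cks1b at 188, 196, 285 and 244 CPM (0.51 ± 0.11), Aurkb at 37.1, 41.1, 43.5 and 56.4 CPM (0.43 ± 0.14), Cenpf at 213, 231, 256 and 276 CPM (0.31 ± 0.10) and Lbr at 98.4, 80.3, 62.9 and 68.5 CPM (-0.38 ± 0.12). With at least 5000 UMIs per cell, 0 were higher and 2 lower. The count was 2 without MMPlow 1, 3 without MMPlow 2 and 17 without MMPhigh 1. Endothelial-like cells, with 12 and 13 cells in MMPhigh, had Cenpf (0.97 ± 0.19) and the kinetochore motor Cenpe (0.77 ± 0.17) higher, against 2.08% of 14980 genes called, 0.841% higher and 1.23% lower, resting on 83 and 82, and 56 and 92 UMIs. No member passed without MMPlow 1 or without MMPlow 2, and 8 did without MMPhigh 2. Their mean share per cell, by contrast, was lower in MMPhigh, at 0.572%, 0.572%, 0.516% and 0.440%. Muscle-like cells had 0 of 49 members called by edgeR, against 2.14% of 9587 genes called, 0.25% higher and 1.89% lower, with 1 at an unadjusted p under 0.05, and DESeq2 called 0. Without MMPhigh 1 or MMPhigh 2 the count was 2 or 3.

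Whether gate differences themselves differed between classes was tested for 3 pairs. Macrophage-like against neuron-like cells gave 35 members with a different gate effect, 34 of them higher in macrophage-like cells and 1 lower. Of all 14563 genes tested 22.0% were called, with 2184 genes higher and 1021 genes (7.01%) lower. The median difference of log2 folds was 1.05 over the members and 0.17 over all genes, and without MMPlow 1 it was 0.70 and -0.06. For Cdk1 the difference of log2 folds was 2.14 ± 0.23 (edgeR adjusted p = 1.77e-09). Mesenchymal-like against neuron-like cells gave 37 members, all higher in mesenchymal-like cells, against 12.4% of 15528 genes, 9.19% higher and 3.26% lower, and Birc5 differed by 1.84 ± 0.15 (edgeR adjusted p = 3.48e-14). Macrophage-like against mesenchymal-like cells gave 2, Nusap1 (-0.49 ± 0.17) and G2e3 (-0.55 ± 0.19), against 20.4% of 14940 genes, 12.2% higher and 8.12% lower, and 0 without either MMPhigh library. The pairs with neuron-like cells were tested only with the cells that carry that name here.

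By role, the members called higher are counted here for 3 classes in which 12.5%, 17.1% and 3.79% of all genes were higher, and differences between roles were not tested. Of the 5 members that are Cdk1 or regulate it, 4 were higher in each of the granulocyte or mast-like, erythroid-like and megakaryocyte-like classes, and the exception was the phosphatase Cdc25c. Of the 4 APC/C and ubiquitin genes 3 were higher in each of these classes, with G2e3 not called. The 3 chromosomal passenger genes gave 3, 2 and 1 higher in the classes in this order, the 12 spindle and microtubule genes 5, 4 and 3, the 5 chromatin and nuclear envelope genes 2, 3 and 1, the 4 kinases and checkpoint genes 0, 1 and 0, the 6 kinetochore and centromere genes 2, 1 and 1, the 5 mitotic chromosome genes 0, 1 and 1, the 4 kinesins 0, 1 and 0, and the 2 cytokinesis genes 0 in all 3 classes. In germ cell-like cells, where 11.6% of all genes were higher, the kinases and checkpoint genes gave 3 of 4 higher, the Cdk1-related genes 2 of 5 and the passenger genes 0 of 3. Summed Cdk1-related genes were at 474, 534, 965 and 918 CPM in granulocyte or mast-like cells, and summed mitotic chromosome genes at 1390, 1389, 1360 and 1304 CPM. Over the 10 classes there were 498 tests of a member in a class, of which 78 were called higher and 32 lower, 28 of the latter in neuron-like cells. Of the 119014 tests of any gene in these classes, 7.33% were called higher and 9.85% lower. The other 4 lower calls were Lbr in erythroid-like, macrophage-like and mesenchymal-like cells and G2e3 in macrophage-like cells. Called in no class were 9 members: Top2a, Mki67, Nuf2, Cdc25c, Ncapd2, Ect2, Ckap5, Gas2l3 and Cbx5.

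Members called higher were mostly short genes. The median genomic span of the 50 genes was 27145 bases, and of the 19 called in granulocyte or mast-like cells 15 were from the shorter 25 and 4 from the longer 25. In erythroid-like cells the numbers were 15 and 5, and in mesenchymal-like cells 3 and 1. Endothelial-like cells went the other way, with 0 and 2. Across members, the Pearson correlation of log10 span with the log2 fold was -0.68 in granulocyte or mast-like cells, -0.65 in erythroid-like cells and -0.50 in megakaryocyte-like cells, against -0.28, -0.16 and -0.12 over all genes tested. In neuron-like cells it was 0.01, against 0.11 over all genes, and 14 of the lower calls came from the shorter 25 genes and 14 from the longer 25. Genes are not independent replicates, and these values carry no test. In granulocyte or mast-like cells all genes with spans under the members' median had a median fold of 0.26 and those over it -0.29.

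**Figure D5:**
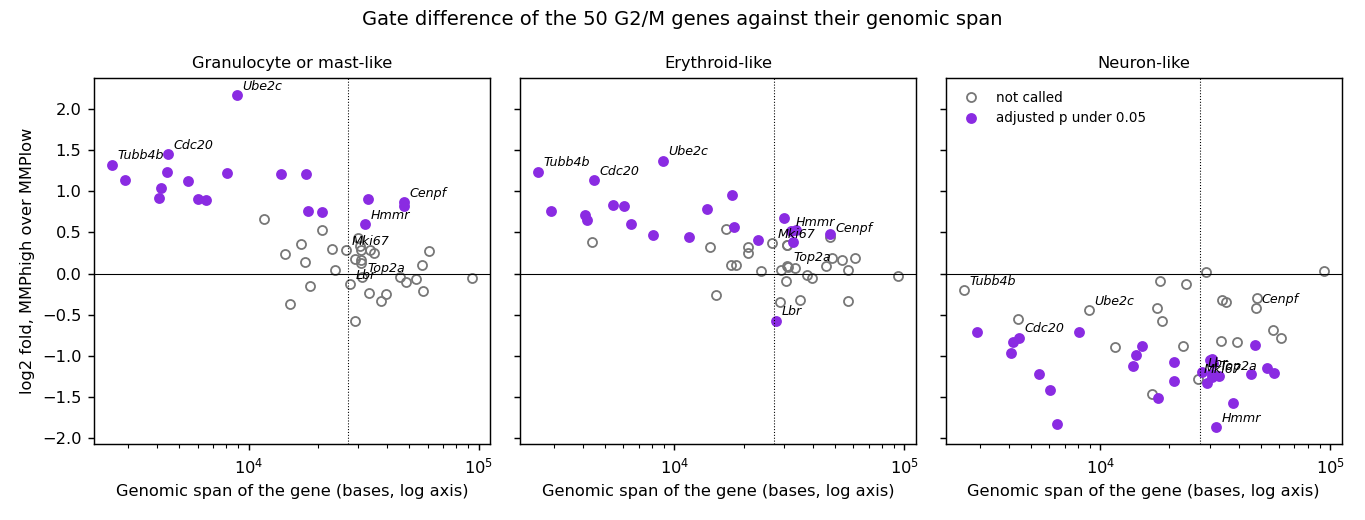
Log2 fold, MMPhigh over MMPlow, of the 50 members (vertical axis) against genomic span in bases (log axis) in 3 cell classes, with filled points where the edgeR adjusted p is under 0.05 and a dotted line at the median span. Called genes gather at short spans in granulocyte or mast-like and erythroid-like cells, and lie on both sides of the line in neuron-like cells.

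Other cell cycle genes outside the 50 were read beside them, against 12.5% of all genes higher and 11.8% lower in granulocyte or mast-like cells, 17.1% and 19.1% in erythroid-like cells, and 8.11% and 12.6% in neuron-like cells. Of a further 50 mitotic genes, 14 were higher and 1 lower in granulocyte or mast-like cells, 19 and 0 in erythroid-like cells, and 1 and 24, of 48 tested, in neuron-like cells. Ccnb1, the main mitotic cyclin, had folds of 1.43, 1.15 and -0.52 in these 3 classes, Ccna2 1.11, 1.22 and -1.19, and the kinase Plk1 1.14, 0.87 and -1.05, where the fold of Ccnb1 in neuron-like cells did not pass. The transcription factor genes Foxm1 (-0.96, -0.14 and -1.32) and Mybl2 (-0.24, 0.33 and -0.89) passed, of these 3 classes, only for Foxm1 in granulocyte or mast-like cells, while Mybl2 was higher in germ cell-like cells (2.63). Of 43 S phase genes, 4 were higher and 6 lower in granulocyte or mast-like cells, 20 and 1 in erythroid-like cells, and 0 and 34 in neuron-like cells. The S phase count in granulocyte or mast-like cells was near the background in both directions. Pcna had folds of 0.41, 0.86 and -1.20 and the replicative helicase gene Mcm5 0.56, 0.89 and -1.05, and Pcna did not pass in granulocyte or mast-like cells. The S phase share per cell in granulocyte or mast-like cells was 0.444%, 0.483%, 0.348% and 0.441%. It was lower in MMPhigh 1, with 41 cells, while MMPhigh 2 lay close to MMPlow 1. The G2/M share was higher in both MMPhigh libraries, at 0.671%, 0.676%, 0.830% and 0.899%. Of the CDK inhibitor and brake list, 3 of 12 were higher and 3 lower in granulocyte or mast-like cells and 1 of 12 higher in neuron-like cells. Cdkn1c was lower in granulocyte or mast-like (-0.84), erythroid-like (-1.43) and macrophage-like cells (-0.97), Cdkn1a was higher in germ cell-like cells (1.56), and Cdkn1b passed in none of the classes. Of 10 G1 cyclins and kinases, 2 were higher in granulocyte or mast-like cells, with Ccnd2 at 0.70, and Ccnd1 was lower in erythroid-like cells (-2.63).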

How the data were processed

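Cells sorted as MMPlow or MMPhigh were profiled with droplet single-cell RNA sequencing (10x 3′ chemistry), 2 libraries per gate. The authors deposited raw UMI counts per gene and barcode; the submitters' processing notes name Cell Ranger 2.1.1 and build mm10, whereas the file headers name Cell Ranger 7.0.1. The libraries held 59928, 23715, 13939 and 4288 barcodes with 120168395, 102083810, 51800709 and 112739406 UMIs.

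Barcodes with at least 2000 UMIs, 1000 genes and at most 25% mitochondrial UMIs were retained. Scrublet, run per library, called 982, 1135, 0 and 94 doublets, which were removed; with 0 calls in MMPhigh 1, doublets may remain there. Cells were clustered in scanpy 1.11.5 (2000 variable genes, leaving out the cell cycle lists, histone, ribosomal protein and mitochondrial genes, 30 components, Leiden resolution 1) and classes were named from marker lists, with naming thresholds set after the clusters had been seen. A cluster with more than 80% of its cells from 1 library was left unnamed whatever its markers. Counts were summed per class and library and tested with edgeR 4.0.16 (R 4.3.3; TMM, filterByExpr, quasi-likelihood F test, two-sided, Benjamini-Hochberg over all genes), with DESeq2 1.42.0 as an alternative. Folds are log2, MMPhigh over MMPlow. The SE of an edgeR fold was computed as the absolute fold over the square root of its F statistic, so it restates the test. The share of G2/M genes per cell was also read after thinning to 2000 UMIs.

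In the test on simulated data, edgeR recovered 74.7% of genes changed by 1 on the log2 scale and 94.8% of those changed by 2 in the erythroid-like sums (12803 genes). These were 95 and 96 changed genes, with 6 false calls. In the real erythroid-like sums 36.2% of genes were called, a setting that the simulation does not cover. Germ cell-like, endothelial-like and muscle-like sums were not simulated. The members and gene lists were chosen with earlier results of these data known. Values per library are given for 16 members fixed by name where a result turns on them and for the 5 called members with the largest fold in each direction of a comparison. Alternatives covered the filters on cells and genes, scaling, doublets, clustering, a replicate block and each library left out. One item is not reported here.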

Additional observations from a re-analysis of the deposited data

Results flagged for a closer look

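Gate effects differed between classes by the interaction test for 2 members between macrophage-like and mesenchymal-like cells, for 35 between macrophage-like and neuron-like cells and for 37 between mesenchymal-like and neuron-like cells (edgeR adjusted p under 0.05). Of all genes tested in these pairs 20.4%, 22.0% and 12.4% were called, so the 2 of 50 lay below the background, and that count was 0 without either MMPhigh library.

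The summed share of the G2/M genes moved one way in both MMPhigh libraries of some classes and the other way in others. MMPhigh minus MMPlow, in percent of UMIs per cell, was 0.101 in erythroid-like, 0.236 in germ cell-like, 0.173 in glial or neural crest-like and 0.191 in granulocyte or mast-like cells. It was -0.0936 in endothelial-like (12 and 13 cells in MMPhigh), -0.110 in macrophage-like and -0.154 in neuron-like cells. The difference between classes was not tested for the shares. At a finer clustering the glial or neural crest-like difference turned to -0.0485. With all variable genes used for clustering, the neuron-like difference was -0.0113, with MMPhigh 1 above both MMPlow libraries. The Mrc1 cluster of macrophage-like cells overlapped between gates, at 0.557%, 0.551%, 0.522% and 0.594%. An unnamed cluster closest to the macrophage markers, led by Aif1 and C1qb but with the globin gene Hbb-bs among its leading genes, entered no class. It held 55, 43, 1526 and 63 cells, with shares of 0.694%, 0.696%, 0.681% and 0.623%. At the finer clustering an unnamed cluster closest to the erythroid markers held 2, 5, 803 and 14 cells. Its overlap with the Aif1 cluster was not computed, so cells may be counted in both. Its shares in MMPhigh were 0.711% and 0.615%. With 97.5% of its cells from MMPhigh 1, it was over the limit of 80% from 1 library for a name. It lay outside the erythroid-like class, whose 160 cells of MMPhigh 1 had 0.828%, so the erythroid-like difference leaves its cells out. Without 6 widely used members the erythroid-like difference was 0.0225 (4.25% of the MMPlow share, against 13.2% with them), and in matched bins of depth the erythroid-like share was not higher in MMPhigh.

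Barcodes with under 2000 UMIs also held UMIs of the G2/M genes, at 0.671%, 0.642%, 0.556% and 0.415% of their UMIs. They enter no comparison, except that those with at least 1000 UMIs and 500 genes enter the alternative with a looser filter on cells.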

How the results depend on the processing

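Of 94 counts of members called under alternatives that kept all libraries, 58 stayed within 1.5 times the reported count, and of 56 differences in share (of UMIs or of cells) 34 moved by less than the spread between libraries. Library size scaling within classes and for equal classes, the test of the Flt3, Angpt1 and Hlf cluster as a class, the shares per cluster, the split at the median span and the leave-out of libraries in the interactions were chosen after seeing the data. DESeq2 called 4 members in endothelial-like, 7 in germ cell-like, 1 in glial or neural crest-like, 1 in macrophage-like, 9 in megakaryocyte-like and 2 in mesenchymal-like cells and 14 in the Flt3, Angpt1 and Hlf cluster. With no filter on low counts the numbers were 8 for equal classes, 4 endothelial-like, 8 glial or neural crest-like, 10 mesenchymal-like and 1 muscle-like. Cells with at least 5000 UMIs and 2000 genes gave 9 erythroid-like, 0 glial or neural crest-like, 5 granulocyte or mast-like, 2 megakaryocyte-like, 11 neuron-like and 2 mesenchymal-like, the last 2 lower instead of mostly higher, and 1000 UMIs and 500 genes gave 12 over all cells. Keeping doublet calls gave 10 for equal classes, 5 glial or neural crest-like, 11 macrophage-like and 8 mesenchymal-like. Resolution 2 gave 9 erythroid-like, 1 glial or neural crest-like, 18 macrophage-like, 8 megakaryocyte-like, 8 mesenchymal-like, 1 muscle-like and 1 neuron-like, and clustering with all variable genes 22 macrophage-like, 3 mesenchymal-like, 1 muscle-like and 1 neuron-like. In both, the neuron-like call was higher instead of lower. Library size scaling gave 3 in mesenchymal-like cells. The cause of these changes was not tested. The share of all genes called under each alternative is not given here, so these counts are not set against their own background.

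The share differences, MMPhigh minus MMPlow in percentage points, were -0.152 over all cells, 0.0379 erythroid-like, 0.0954 glial or neural crest-like, -0.173 macrophage-like and -0.0611 mesenchymal-like (turned) with at least 5000 UMIs. Without the 6 widely used members they were 0.0225 erythroid-like, 0.155 germ cell-like, 0.0994 glial or neural crest-like, 0.105 granulocyte or mast-like, -0.0763 macrophage-like, 0.00138 megakaryocyte-like and -0.107 neuron-like. Resolution 2 gave -0.0485 glial or neural crest-like (turned), -0.162 macrophage-like, 0.0543 mesenchymal-like, 0.0722 muscle-like (turned) and -0.0705 neuron-like, and all variable genes -0.163 macrophage-like and -0.0113 neuron-like. Over all cells, the gate difference in cells with at least 10 G2/M UMIs was -11.1 percentage points. It was -20.7 at 5 UMIs, 1.84 at 20 (turned, but with libraries of the gates overlapping) and -18.1 with at least 5000 UMIs.

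Leaving out 1 library at a time gave 9 to 25 members over all cells, 1 to 5 for equal classes, 0 to 8 endothelial-like, 9 to 29 erythroid-like, 3 to 33 germ cell-like, 0 to 8 glial or neural crest-like, 13 to 22 granulocyte or mast-like, 1 to 9 macrophage-like, 1 to 16 megakaryocyte-like, 2 to 17 mesenchymal-like, 0 to 3 muscle-like, 8 to 33 neuron-like and 15 to 21 in the Flt3, Angpt1 and Hlf cluster. The lone library of a gate is then assumed to vary like the other gate's. The share of all genes called also changes between such fits and is not given here, so the ranges do not show a change beyond the background. The interactions gave 0 to 3 (macrophage-like and mesenchymal-like), 20 to 35 (macrophage-like and neuron-like) and 29 to 38 (mesenchymal-like and neuron-like). Share differences ranged from -0.0955 to -0.0418 over all cells, -0.131 to -0.0558 endothelial-like, 0.0617 to 0.14 erythroid-like, 0.185 to 0.286 germ cell-like, 0.108 to 0.237 glial or neural crest-like, 0.156 to 0.225 granulocyte or mast-like, -0.135 to -0.0854 macrophage-like, 0.0163 to 0.0841 megakaryocyte-like, -0.0109 to 0.0497 mesenchymal-like, -0.0971 to -0.0108 muscle-like and -0.164 to -0.144 neuron-like.

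Libraries of the gates share replicate numbers 1 and 2. Deviations of same-numbered libraries correlated at 0.116 over 20408 genes, with 2 pairs only, so the numbers are taken as names. With the number as a replicate block, 20 members were called over all cells, 34 in neuron-like, 27 in erythroid-like, 18 in granulocyte or mast-like and 7 in glial or neural crest-like cells, and 19, all higher, in the Flt3, Angpt1 and Hlf cluster. Clustering with all variable genes named no glial or neural crest-like class, and the interaction with a neural progenitor class was not run, nor was any interaction under other settings than leaving out a library.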
